A study of Homo sapiens with 4 samples.

Results

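The genes described here restrain or feed into the growth kinase complex mTORC1. They were followed in H1299 cells, which derive from a human lung carcinoma and have no p53 of their own, after stable insertion of a mouse p53 gene under tet-on control. There were 10 of them, chosen by name: the sestrin genes SESN1, SESN2 and SESN3, the stress gene DDIT4, the tuberous sclerosis genes TSC1 and TSC2, and the catalytic (PRKAA1, PRKAA2) and scaffold (PRKAB1, PRKAB2) subunit genes of the AMP-activated kinase AMPK. All 10 were measured, among 18417 genes in all, each by 1 probe set whose annotation names that gene alone. The induced group had been kept for 24 hours with doxycycline at 0.5 µg/mL, which turns on the inserted gene, and the uninduced group was the same stable line before that treatment. Both groups carried the construct and grew in the same medium with tet-free serum. Each group had 2 arrays that the labels call technical replicates, so p-values here reflect array-to-array spread alone, and precision is limited by how few arrays there are. No sample had doxycycline without the construct, so effects of the drug and of p53 cannot be told apart. No time is recorded for the uninduced arrays, so a difference in time in culture cannot be told apart from induction either. The labels name 1 stable line without saying whether it is a single clone.

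Sestrins are stress-induced proteins that hold back mTORC1. They bind GATOR2, a complex that otherwise relieves GATOR1's inhibition of the RAG GTPases, which bring mTORC1 to the lysosome, and they also act with AMPK. AMPK is a trimer of a catalytic alpha, a scaffolding beta and a nucleotide-sensing gamma subunit that is active when cellular energy is low. It phosphorylates TSC2, the partner of TSC1 in a complex that switches off RHEB, the small GTPase that activates mTORC1, and DDIT4 (also called REDD1) acts through the same complex. SESN1, SESN2, DDIT4, TSC2 and PRKAB1 are known in other settings as genes that p53 can induce.

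As a check of the labels, the p53 target CDKN1A read 12.63 and 12.50 log2 units on the induced arrays, against 9.16 and 9.11 on the uninduced arrays, and MDM2 read 12.70 and 12.76 when induced, against 9.84 and 9.85 uninduced. The line's keratin and vimentin genes were read on every array, with group means of 10.63 induced and 9.485 uninduced for KRT8, 11.04 and 11.135 for KRT18, and 12.32 and 12.72 for VIM. Of these, KRT8 was higher (adjusted p = 0.000241) and VIM lower (adjusted p = 0.00556) in limma's test, and KRT18 did not pass it (0.455). Of 19 measured markers of blood, fibroblast and endothelial cells, 2 (ITGAM and CD3E, named after their values were seen) passed limma's test. Of all genes tested, 45.1% passed the same test. The summed linear level of the 19 was 5877 to 6268 on the induced arrays, against 5165 to 5391 on the uninduced arrays, of which CD68 made up the most, at means of 11.92 log2 units induced and 11.74 uninduced (adjusted p = 0.133, not called). ITGAM had means of 8.97 induced and 7.635 uninduced (adjusted p = 1.12e-05). Their part in the results was not tested. Between arrays of a group the correlation across genes was 0.9951 induced and 0.9974 uninduced, against 0.9166 to 0.9214 between groups, and genes are not independent replicates.

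After induction 6 of the 10 genes rose and 3 fell, by limma's moderated test with p-values adjusted over all genes (Benjamini-Hochberg, under 0.05). Of all genes tested, 45.1% passed that threshold, 20.6% higher and 24.6% lower. SESN1, PRKAB1, SESN2 and DDIT4 rose at least 2-fold, as did 6.48% of all genes, and PRKAA2 fell at least 2-fold, as did 6.77%. TSC1 did not pass the test. The induced and uninduced arrays did not overlap for 9 of the 10 genes, against 66.8% of all genes, so that count says little by itself with 2 arrays a group. The median log2 fold change of the 10 was 0.59 and the median of their absolute log2 fold changes 0.95, beside 0 and 0.23 over all genes. All genes include many dim ones, whereas most of the 10 were not dim. Without genes under the 40th percentile of mean level, 68% of the 11053 genes left passed the test. Of the 9 genes of the set left there, 6 rose and 2 fell.

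**Figure D1:**
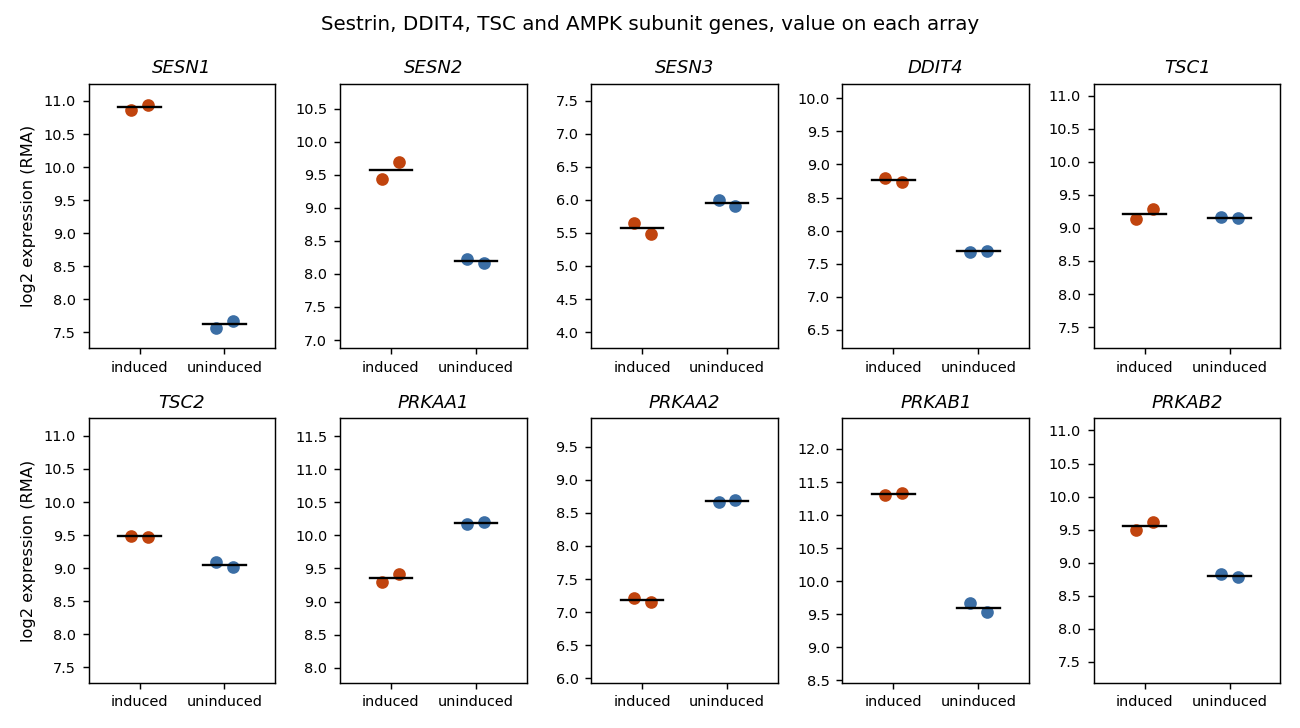
Log2 expression (RMA) of each of the 10 genes on the 2 induced (left in each panel) and 2 uninduced arrays; points are arrays, bars are group means, and each vertical axis spans 4 log2 units around its own gene, so distances but not heights compare between panels. SESN1 shows the widest separation, and the points of TSC1 overlap.

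The sestrin genes moved in different directions. SESN1 (probe set 8128698) read 10.87 and 10.94 log2 units on the induced arrays, against 7.56 and 7.68 on the uninduced arrays. Every induced value was at least 3.19 log2 units above every uninduced one. The rise was 9.75-fold, with a 95% interval from limma of 8.44 to 11.3 (log2 fold change 3.29, SE 0.089, adjusted p = 7.17e-07), and in absolute size it ranked 74 among the 18417 genes. ARMC2, a gene whose annotated extent overlaps that of SESN1, had its own probe set at 7.58 and 7.74 induced, against 6.76 and 6.70 uninduced, a log2 fold change of 0.93 (SE 0.092); whether the probe sets share signal was not tested.

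RefSeq (GRCh38.p14) gives 3 start sites for SESN1, and the window before the third is shown because it was the only one of the 13 start-site windows of the 10 genes to hold a match to the p53 half-site consensus. The windows are the 250 bases before each start, 5′ to 3′ on the gene's strand, and both strands were searched. The match, in capitals, lies from 49 to 40 bases before the start and reads as a match on both strands, since the consensus is its own reverse complement. Of 35116 promoter windows of the same length, 5.57% hold such a match. It is a match of letters to a single half-site. Pairs of half-sites were not searched for, and no binding was measured.
SESN1, start site 3, chr6:109008989-109009238, minus strand: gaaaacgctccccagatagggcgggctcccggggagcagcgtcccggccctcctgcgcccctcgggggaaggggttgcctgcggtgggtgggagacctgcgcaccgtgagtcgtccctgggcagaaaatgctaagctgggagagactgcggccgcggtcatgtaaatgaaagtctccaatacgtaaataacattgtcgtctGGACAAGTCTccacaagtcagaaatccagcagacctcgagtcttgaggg

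SESN2 (probe set 7899436), the sestrin best known as a leucine sensor, read 9.44 and 9.69 log2 units on the induced arrays, against 8.22 and 8.16 on the uninduced arrays. The groups were 1.22 log2 units apart at their closest, although the induced pair was spread more widely than the uninduced pair (SD 0.177 and 0.042). It rose 2.59-fold (95% interval 2.18 to 3.08, adjusted p = 3.17e-05 in limma's test). SESN3 (probe set 7951077) went the other way, reading 5.65 and 5.49 induced, against 5.99 and 5.90 uninduced. Its fall was small (log2 fold change -0.38, SE 0.094, adjusted p = 0.0131 in limma's test), and it was not called whichever uninduced array was left out (adjusted p = 0.162 without uninduced array 1 and 0.105 without uninduced array 2) or without induced array 2 (0.0783). SESN3 also lay among the dimmest genes, below the 40th percentile of mean level, and no detection call was used here. With SESN1 up, SESN2 up less and SESN3 down, the 95% intervals of the 3 folds did not overlap (SESN3's ran from 0.662 to 0.899).

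By distance over the 4 arrays, each gene centred on its own mean, the genes most like SESN1 were PCLO, CASP6 and APAF1. PCLO, a presynaptic scaffold gene, lay at 0.0663 log2 units from SESN1, with 9.34 and 9.45 induced, against 6.11 and 6.23 uninduced. CASP6, an executioner caspase gene, lay at 0.0753, with 10.43 and 10.47 induced, against 7.17 and 7.19 uninduced. APAF1, the apoptosome core, lay at 0.0831, with 11.38 and 11.44 induced, against 8.0 and 8.09 uninduced. With 2 groups of 2 arrays this likeness mainly states an equal difference between the groups.

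DDIT4, which signals stress such as hypoxia to the TSC complex, rose 2.11-fold. Its probe set 7928308 read 8.79 and 8.73 log2 units on the induced arrays, against 7.68 and 7.69 on the uninduced arrays. The 2 arrays of each group nearly coincided, and the groups were 1.04 log2 units apart at their closest. The 95% interval of its fold (1.84 to 2.41, adjusted p = 3.15e-05 in limma's test) overlaps that of SESN2. The DDIT4 window is shown for its match to ACGTG, the core that hypoxia-inducible factors bind, in capitals from 125 to 121 bases before the start; 18.5% of all windows hold ACGTG on either strand.
DDIT4, chr10:72273674-72273923, plus strand: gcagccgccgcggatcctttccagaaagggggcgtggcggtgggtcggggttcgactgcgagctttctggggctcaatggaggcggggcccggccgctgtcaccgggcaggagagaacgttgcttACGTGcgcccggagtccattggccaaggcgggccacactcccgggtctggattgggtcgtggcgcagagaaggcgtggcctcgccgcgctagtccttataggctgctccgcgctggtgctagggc

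Of the genes of the TSC complex, TSC2 rose slightly and TSC1 did not pass the test. TSC2 (probe set 7992474), which carries the domain that inactivates RHEB, read 9.49 and 9.47 log2 units on the induced arrays, against 9.09 and 9.01 on the uninduced arrays. The groups did not overlap, with a gap of 0.38 log2 units, and the rise was 1.35-fold (95% interval 1.18 to 1.54, adjusted p = 0.00384 in limma's test). That call was lost without uninduced array 1 (adjusted p = 0.0506) and without uninduced array 2 (0.0737), with folds of 1.39 and 1.31. PKD1, whose annotated extent overlaps that of TSC2, read 7.86 and 7.67 induced, against 7.94 and 8.02 uninduced (log2 fold change -0.21, SE 0.097, adjusted p = 0.119).

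TSC1 (probe set 8164781), which stabilises TSC2, read 9.13 and 9.29 log2 units on the induced arrays, against 9.16 and 9.15 on the uninduced arrays. The induced values lie on both sides of the uninduced ones. Its fold was 1.04 with a 95% interval of 0.896 to 1.2 (adjusted p = 0.691 in limma's test), so rises above 1.2-fold and falls below 0.896-fold lie outside the interval. The interval of TSC2 reaches down to 1.18 and overlaps that of TSC1, and the difference between the 2 genes was not tested. The first of 2 start-site windows of TSC2 is shown because it held matches to 3 motifs, all in the 1 run of capitals from 114 to 103 bases before the start. CACGTG, the E-box of lysosomal and MYC-family factors, contains ACGTG on both strands, and TGATGNAA, the core of the amino acid response element that ATF4 binds, overlaps its last bases. CACGTG was found in 6.34% and TGATGNAA in 3.14% of all windows.
TSC2, start site 1, chr16:2047735-2047984, plus strand: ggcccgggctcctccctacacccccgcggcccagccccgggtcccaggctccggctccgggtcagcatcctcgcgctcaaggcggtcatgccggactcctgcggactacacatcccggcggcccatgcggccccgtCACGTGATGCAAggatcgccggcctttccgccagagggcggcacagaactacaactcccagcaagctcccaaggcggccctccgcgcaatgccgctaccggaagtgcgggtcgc

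Both catalytic alpha genes of AMPK fell and both scaffold beta genes rose, whereas the gamma genes, described with the other pathway genes, were called in both directions. PRKAA1 (probe set 8111796), which encodes alpha 1, read 9.30 and 9.41 log2 units on the induced arrays, against 10.17 and 10.20 on the uninduced arrays. It fell by 0.83 on the log2 scale (SE 0.086, adjusted p = 0.000145 in limma's test), a fold of 0.563. PRKAA2 (probe set 7901720), which encodes alpha 2, fell further, reading 7.21 and 7.15 induced, against 8.66 and 8.70 uninduced. Its log2 fold change was -1.5 (SE 0.083, adjusted p = 6.58e-06 in limma's test), a fold of 0.354 with a 95% interval of 0.309 to 0.405, which does not overlap the interval of PRKAA1 (0.489 to 0.647). For both alpha genes every induced value lay below every uninduced value, by at least 0.76 log2 units for PRKAA1 and 1.45 for PRKAA2.

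PRKAB1 (probe set 7959123), which encodes beta 1, read 11.31 and 11.34 log2 units on the induced arrays, against 9.67 and 9.53 on the uninduced arrays. The rise was 3.31-fold (95% interval 2.86 to 3.82, adjusted p = 4.93e-06 in limma's test), the second largest of the 10 genes after SESN1, and the groups were 1.64 log2 units apart at their closest. PRKAB2 (probe set 7919305), which encodes beta 2, read 9.5 and 9.62 induced, against 8.83 and 8.78 uninduced. It rose 1.69-fold (95% interval 1.46 to 1.95, adjusted p = 0.000263 in limma's test), less than PRKAB1 by intervals that do not overlap. In each subunit class, therefore, 1 gene had a larger fold on the arrays than its paralog, PRKAA2 among the alpha genes and PRKAB1 among the beta genes. Each gene was read by its own probe set, and the differences between paralogs were not tested. The array values are RNA levels per array after normalization. They do not show how much of each subunit was assembled into AMPK, and an RNA drop shared by all genes would not appear in them.

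**Figure D2:**
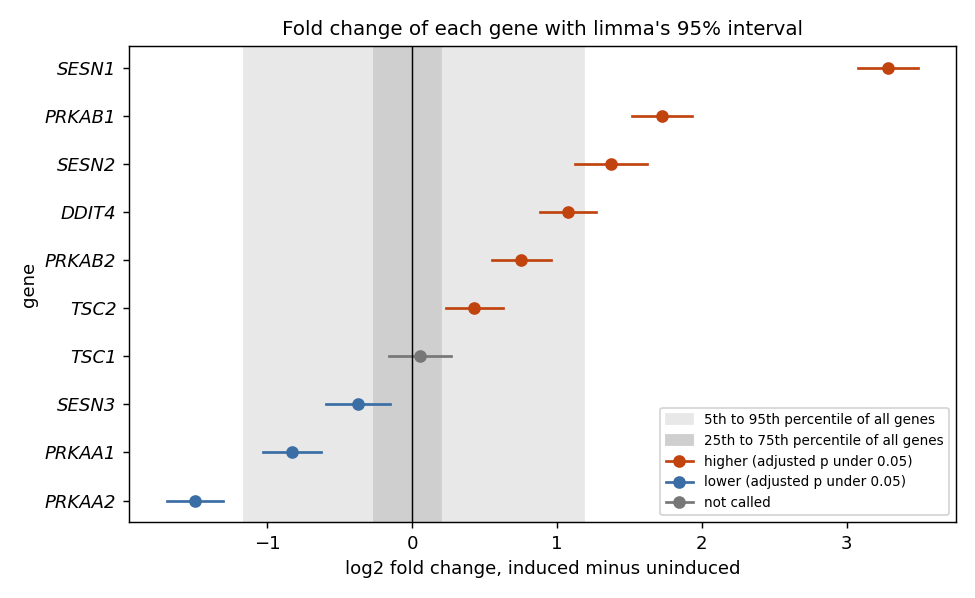
Log2 fold change (induced minus uninduced) of each gene with limma's 95% interval, over grey bands for the 25th to 75th and the 5th to 95th percentile of all 18417 genes (the outer band runs from -1.16 to 1.19). SESN1, PRKAB1 and SESN2 lie above the outer band and PRKAA2 below it; DDIT4, PRKAB2, TSC2, SESN3 and PRKAA1 lie inside it, and TSC1 spans 0.

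Other genes of the pathway were taken from a list of 60, in 7 groups, of which 54 were measured by a probe set naming 1 gene. Of the 54, 17 rose and 12 fell, which is 31.5% and 22.2%, beside 20.6% and 24.6% of all genes. Their median log2 fold change was 0.030, with 5 rising and 2 falling at least 2-fold. Without uninduced array 1 the counts were 10 higher and 6 lower, and without uninduced array 2 they were 11 and 7. After quantile normalization again they were 20 and 9, so the balance of higher and lower genes moved with the scaling. Pathway genes named beyond the fixed rule were not followed singly under the alternatives. Among the upstream kinases and AMPK gamma subunits, 4 of 9 rose and 2 fell, which is 44.4% and 22.2%. STRADB and STRADA, pseudokinases that activate LKB1, rose 3.0-fold and 2.49-fold, and STK11, the LKB1 gene itself, 1.29-fold. Of the 3 gamma genes, PRKAG1 rose (log2 fold change 0.27, adjusted p = 0.0326), PRKAG2 fell (-0.36, adjusted p = 0.0145) and PRKAG3 stood at 0.0050 (adjusted p = 0.979). CAMKK2, the calcium-dependent AMPK kinase, had a log2 fold change of -0.29 and CAB39, the scaffold of the LKB1 complex, one of 0.16 (adjusted p = 0.175).

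**Figure D3:**
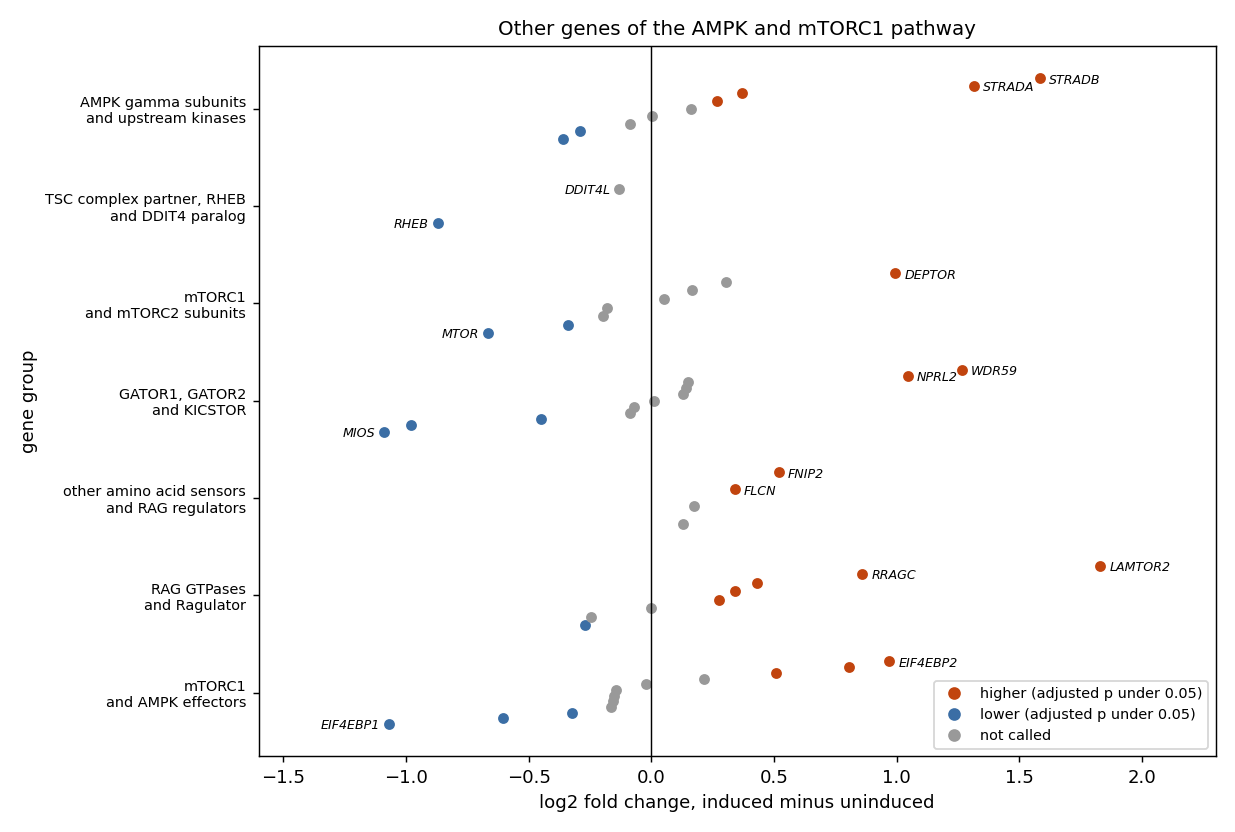
Log2 fold change (induced minus uninduced) of the 54 other pathway genes measured, 1 point per gene, in 7 groups; red points rose, blue points fell and grey points did not pass limma's test at an adjusted p under 0.05. LAMTOR2 at 1.83 and STRADB at 1.58 lie farthest to the right, MIOS at -1.09 and EIF4EBP1 at -1.07 farthest to the left.

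The probe sets of STRADB and RHEB need care. The probe set used for STRADB (7901336) is numbered among probe sets of chromosome 1, whereas the gene is on chromosome 2, and that used for RHEB (7927285) among those of chromosome 10, whereas the gene is on chromosome 7. Whether they read copies of these genes elsewhere in the genome was not tested. The second probe set of each, numbered among its own chromosome's, gave much the same difference: STRADB (8047443) read 11.06 and 11.13 induced, against 9.46 and 9.59 uninduced (log2 fold change 1.57), and RHEB (8143957) read 9.31 and 9.47 induced, against 10.24 and 10.33 uninduced (-0.90). RHEB, the GTPase that TSC2 inactivates, thus fell on both probe sets (-0.87 with SE 0.097 on the brighter one), while DDIT4L, the paralog of DDIT4, stood at -0.13 log2 (SE 0.16, adjusted p = 0.586).

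Among 8 subunit genes of mTORC1 and mTORC2, 1 rose and 2 fell. These shares, 12.5% and 25%, stand beside 20.6% and 24.6% of all genes. DEPTOR, an inhibitory subunit, rose 1.99-fold (7.69 and 7.87 induced, against 6.83 and 6.74 uninduced). MTOR, the kinase itself, fell by 0.67 on the log2 scale (8.83 and 8.92 induced, against 9.54 and 9.54 uninduced). AKT1S1, a second inhibitor, fell by 0.34 (8.96 and 8.67 induced, against 9.21 and 9.1 uninduced). It passed limma's test only narrowly (adjusted p = 0.0457). The mTORC1 scaffold RPTOR had a log2 fold change of -0.18 (adjusted p = 0.128) and the mTORC2 scaffold RICTOR one of 0.30 (adjusted p = 0.0609).

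Of 11 GATOR1, GATOR2 and KICSTOR genes, in the amino acid branch on which sestrins act, 2 rose and 3 fell. These shares, 18.2% and 27.3%, lie near those of all genes (20.6% and 24.6%). In GATOR2, the sestrin-binding complex, WDR59 rose 2.40-fold (11.05 and 11.19 induced, against 9.85 and 9.86 uninduced), whereas MIOS fell by 1.09 on the log2 scale (8.18 and 8.35 induced, against 9.31 and 9.40 uninduced) and SEH1L, which also serves in the nuclear pore, fell by 0.98. In GATOR1, NPRL2 rose 2.06-fold, while DEPDC5 and NPRL3 had log2 fold changes of 0.13 and 0.14 (adjusted p = 0.328 and 0.227). ITFG2 of KICSTOR fell by 0.45. Among 8 RAG and Ragulator genes, 5 rose and 1 fell, which is 62.5% and 12.5%, beside the same 20.6% and 24.6% of all genes. LAMTOR2, part of the lysosomal anchor of the RAGs, rose 3.56-fold (9.99 and 10.13 induced, against 8.24 and 8.22 uninduced) and RRAGC 1.82-fold. RRAGD, LAMTOR4 and RRAGB had log2 fold changes of 0.43, 0.34 and 0.28, and LAMTOR3 one of -0.27. In limma's test RRAGB and LAMTOR3 passed narrowly (adjusted p = 0.0323 and 0.0438). Of 4 other sensors and RAG regulators, FNIP2 rose 1.43-fold and its partner FLCN 1.27-fold, a pair that acts on RRAGC and RRAGD; the call of FLCN was lost whichever array was left out (adjusted p = 0.0901 to 0.241).

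Of 12 effector genes, 3 rose and 3 fell, 25% each way, close to the 20.6% and 24.6% of all genes. The 2 repressors of the cap-binding protein eIF4E moved apart: EIF4EBP1 fell by 1.07 on the log2 scale (8.62 and 8.47 induced, against 9.63 and 9.60 uninduced) and EIF4EBP2 rose 1.96-fold (10.90 and 11.09 induced, against 10.01 and 10.04 uninduced). ULK1, the autophagy kinase that AMPK activates and mTORC1 inhibits, rose 1.75-fold, and TFEB, a lysosomal transcription factor, 1.42-fold. RPS6KB1, the S6 kinase gene, fell by 0.60 and LARP1, which binds mRNAs of the translation machinery, fell by 0.33. RPS6, the ribosomal target of S6 kinase, stood at a log2 fold change of -0.020 (adjusted p = 0.881).

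**Figure D4:**
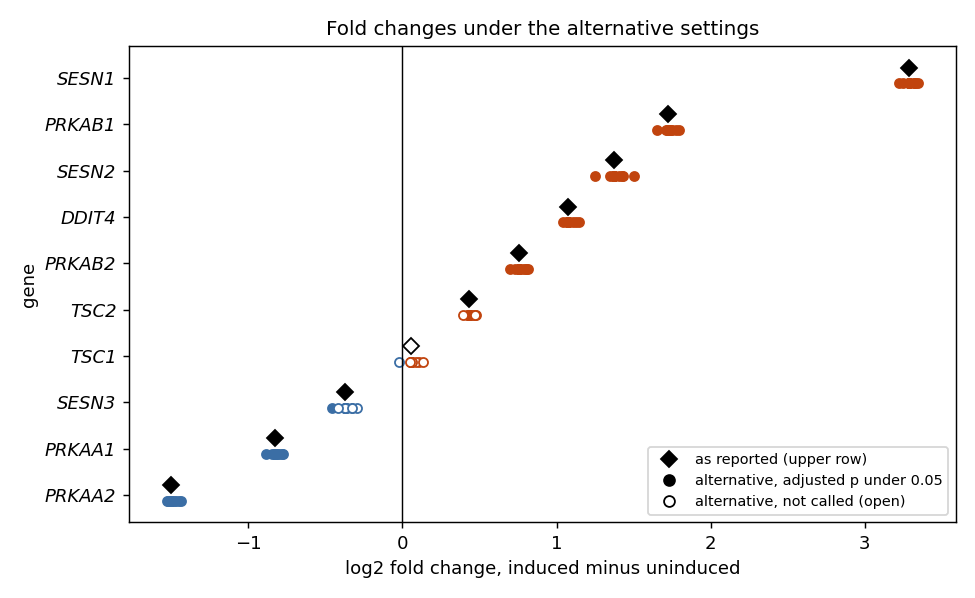
Log2 fold change (induced minus uninduced) of each gene as reported (black diamond, upper) and under the alternative settings (circles, lower; red above 0, blue below 0; filled where the adjusted p was under 0.05). The circles of SESN1 run from 3.23 to 3.35 and are all filled; SESN3 and TSC2 have open circles, and those of TSC1 lie on both sides of 0.

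Of the 10 genes, 7 (SESN1, SESN2, DDIT4, PRKAA1, PRKAA2, PRKAB1 and PRKAB2) were called in the same direction under each of the 12 alternative settings tried, with log2 fold changes of 1.25 to 1.5 for SESN2, -0.89 to -0.78 for PRKAA1 and 1.66 to 1.80 for PRKAB1. SESN3 and TSC2 kept their direction but lost the call in some of them, and TSC1, not called in any, ran from -0.025 to 0.14.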

How the data were processed

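Biotin-labelled single-stranded cDNA from total RNA was hybridised to an Affymetrix whole-transcript array, per the labels' protocols. Per the submitters' processing notes, Affymetrix Expression Console with RMA made the values; its version, settings and build were not given in the sources. What the authors deposited is 1 log2 level per probe set and array (33297 rows, medians 7.26 to 7.33 per array). RMA equalises the arrays' distributions, so a shift of all genes would be hidden, and differences of dim genes are compressed.

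Of these rows, 19460 were annotated to 1 gene symbol. Their gene ID was found in RefSeq for 19429, which took RefSeq's symbol, whether or not it differed. The 19460 rows were reduced to the brightest per gene, giving 18417 genes. limma 3.58.1 in R 4.3.3 (lmFit, eBayes, no covariate, 7.20 total degrees of freedom) compared induced with uninduced arrays, two-sided, Benjamini-Hochberg adjusted over all genes and called under 0.05; intervals are limma's, unadjusted. An exact permutation test of 2 against 2 arrays cannot go below p = 0.333. The fit was tested on simulated data. Fewer RNA molecules per cell and fewer expressing cells cannot be told apart.

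The genes, lists, motifs and tests were chosen with earlier results of these data known. Named were the 10 genes, the 2 largest changes of each pathway group, every pathway gene called at 2-fold, and the 3 genes nearest SESN1; other pathway genes, ARMC2, PKD1, ITGAM and CD3E were named after their values were seen. The probe sets' chromosomes were read from the genes of the 10 rows on either side in number order. Promoter windows are RefSeq's, GRCh38.p14; all 10 genes matched by symbol. Figures used Python 3.11.15 and matplotlib 3.10.9. Alternatives tried were quantile normalization again, median centring, no genes under the 40th percentile, averaged probe sets, all rows, an intensity trend with a robust prior, a treat test at 1.2-fold, a replicate block, and leaving out each array.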

Additional observations from a re-analysis of the deposited data

Results flagged for a closer look

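CASTOR2, a GATOR2-binding relative of the arginine sensor CASTOR1, was read only by probe sets also annotated to its pseudogene CASTOR3P, and so was not among the genes compared. Its 2 probe sets hold identical values, 10.33 and 10.47 log2 units on the induced arrays, against 9.22 and 9.20 on the uninduced arrays, a log2 fold change of 1.19 (adjusted p = 0.000777 in limma's test over all rows of the table). Which of the genes gave this signal cannot be told apart. A probe set shared by TBC1D7, the third subunit of the TSC complex, with a readthrough gene read 7.71 and 7.85 induced, against 8.42 and 8.61 uninduced (log2 fold change -0.73, adjusted p = 0.00599 in the same fit).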

How the results depend on the processing

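No called value of the 10 genes or of the 20 other named genes changed direction. SESN3 lost its call in 4 of 11 alternatives (it has no value without dim genes) and TSC2 in 3 of 12; both lost it in limma's treat test against a fold of 1.2 (adjusted p = 0.360 and 0.127). FLCN lost its call in 6 of 12. Of 8311 genes called, treat left 5479, and leaving out 1 array left 4959 (uninduced array 2), 5043 (uninduced array 1), 6765 (induced array 1) or 6904 (induced array 2). The 17 higher and 12 lower pathway genes became 10 and 6 under treat, 10 and 6 without uninduced array 1, and 11 and 7 without uninduced array 2. They were 20 and 9 after quantile normalization, 19 and 10 after median centring and 21 and 14 with the intensity trend; across all arrays left out they ranged from 10 to 14 and 6 to 10. The cause was not tested; 3 arrays leave fewer degrees of freedom. The 6 higher and 3 lower of the 10 genes ranged from 5 to 6 and 2 to 3. Counts at 2-fold stayed between 2132 and 2507. With the replicate number as a block, which the labels do not tie to a shared culture (deviations of same-numbered arrays correlated at 0.225), 7820 genes were called and the 10 genes' calls were unchanged, 6 higher and 3 lower. The higher share of all calls was 45.6%, and 51.1% after median centring, which moved the median gene by 0.050. Depth has no count here; the number of arrays limits the precision.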
